A study of Mus musculus with 18 samples.

Results

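Spinal neuron subtype transcription factors are the DNA-binding proteins by which a newborn neuron of the cord takes on one identity, such as motor neuron, inhibitory interneuron or commissural relay neuron. The 42 genes described here are a chosen set of such factors, taken by name from the deposited coexpression table, which lists 23890 genes. All 42 were found, 40 under their present symbol and Tfap2a and Tfap2b under the older symbols Tcfap2a and Tcfap2b, and each matched 1 probe set, so all entered the test over 23834 genes. The rule used no value of the arrays, and no filter on low values was applied. The genes were nevertheless chosen with earlier results of these data known, so the counts below are not those of a blind set. Expression was measured on 1-colour arrays in cells of embryonic spinal cord from Swiss-Webster mice with the Aldh1l1-GFP transgene, which places green fluorescent protein under control of Aldh1l1, a gene for an astrocyte enzyme. Every group carried this transgene, and the labels name no treatment. Cords were dissociated with papain and flow sorted, and cells with the fluorescent protein (GFP cells) were set against a sort of all live cells (whole). By its title whole includes the GFP cells, in which case the ratio understates the contrast with cells that lack the protein; the shared protocol text names GFP-negative cells instead, and the values were not used to tell which holds. For the GFP cells 3 arrays were run at E13.5 (the embryonic day), 2 at E14.5 and 3 later on (the late age), of which 2 were from E17.5 and 1 from E18.5, and whole had 3, 3 and 3 with the same make-up.

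The titles call the arrays of a group biological replicates but name neither litters nor animals, so a p-value here weighs a difference against the spread of these samples, and the number of arrays limits the precision. Arrays of 1 group correlated at 0.985 to 0.994 over all genes, and the array medians lay between 7.73 and 7.82 on the log2 scale. The sort was checked against 9 astrocyte and radial glia markers: in the order E13.5, E14.5, late age, 6, 6 and 8 were higher in GFP cells than in whole, and none was lower. Aldh1l1 itself was higher by a log2 of 2.19 ± 0.12, 1.80 ± 0.14 and 0.96 ± 0.12. All 8 microglial markers were lower in GFP cells from E14.5 on, and hemoglobin Hba-a1 was lower at E13.5 (difference -4.57 ± 0.13).

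In the developing cord, progenitors in stacked dorsal to ventral domains give rise to cardinal classes of neurons, and each class switches on its own combination of homeodomain, LIM-homeodomain, paired-box, POU, forkhead, GATA and basic helix-loop-helix factors as it leaves the cell cycle. These factors direct the choice of transmitter, the path of the axon and the settling position, and many are turned down again once the neuron matures. The same progenitor domains later make astrocytes and oligodendrocytes. Aldh1l1 is expressed by radial glia and astrocytes, the lineage that also gives rise to these neurons.

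The 250 bases upstream of the transcription start of 4 of the factors are shown, because these genes had the largest differences of their role groups at E13.5 or, for Tfap2b, the widest range over the arrays. They were chosen after their values were seen. The sequences are those of RefSeq on the build GRCm38.p6, from 5′ to 3′ along the gene. Capitals mark matches to 3 motifs searched on both strands. The motif CAGCTG is a site of basic helix-loop-helix factors. Another such site is CAGATG, whose reverse complement was also counted. The motif TAATTA is a core of homeodomain sites, and no motif lies inside another.
Lhx1 (chr11:84525535-84525784, minus strand): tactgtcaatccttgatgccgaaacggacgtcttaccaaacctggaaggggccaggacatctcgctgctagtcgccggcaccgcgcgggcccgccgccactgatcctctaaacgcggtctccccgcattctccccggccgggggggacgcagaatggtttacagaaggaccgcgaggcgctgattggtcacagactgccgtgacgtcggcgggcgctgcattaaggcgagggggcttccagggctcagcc
Isl1 (chr13:116309689-116309938, minus strand): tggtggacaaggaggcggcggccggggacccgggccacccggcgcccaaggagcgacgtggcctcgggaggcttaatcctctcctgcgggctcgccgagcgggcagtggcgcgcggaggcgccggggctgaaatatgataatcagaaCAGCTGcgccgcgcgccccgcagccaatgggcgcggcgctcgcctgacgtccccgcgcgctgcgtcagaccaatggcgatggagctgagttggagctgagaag
Pou4f1 (chr14:104468000-104468249, minus strand): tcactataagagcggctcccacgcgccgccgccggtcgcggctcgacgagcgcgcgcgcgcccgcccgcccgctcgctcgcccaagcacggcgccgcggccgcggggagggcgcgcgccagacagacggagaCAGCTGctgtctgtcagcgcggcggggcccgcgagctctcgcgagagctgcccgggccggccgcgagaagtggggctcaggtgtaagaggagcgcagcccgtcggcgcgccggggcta
Tfap2b (chr1:19211804-19212053, plus strand): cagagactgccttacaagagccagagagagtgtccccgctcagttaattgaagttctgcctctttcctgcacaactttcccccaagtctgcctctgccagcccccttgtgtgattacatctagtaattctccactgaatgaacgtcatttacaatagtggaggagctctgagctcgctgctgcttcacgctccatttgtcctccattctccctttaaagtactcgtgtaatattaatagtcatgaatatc
Isl1 and Pou4f1 each held 1 CAGCTG, and none of the 4 windows held CAGATG or TAATTA. The GC content was 64.8% for Lhx1, 71.2% for Isl1, 78% for Pou4f1 and 46.4% for Tfap2b, against a median of 52.4% over all 32851 windows of the same length. Of the 42 genes, 35 had at least 1 window, 45 in all, with several for some genes. CAGCTG lay in 6 of these 45 windows (5 genes), CAGATG in 3 and TAATTA in 2. Over all windows, the 3 motifs were present in 13%, 14.4% and 4.84%. These matches describe the letters in the windows and are not evidence of binding.

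At the 2 early ages a subset of the subtype factors was lower in GFP cells than in whole, and at the late age few of them differed. At E13.5, 15 of the 42 genes were lower in GFP cells past the threshold (limma, adjusted p at most 0.05 over all genes), where 8.01% of all genes were lower, and 1 gene, Sim1, was higher, where 11.1% of all genes were higher. At E14.5, 14 of the 42 were lower against 8.23% of all genes, and none was higher against 10.3% of all genes; none was higher at an unadjusted p under 0.05 either. At the late age 2 were lower, Pou4f1 and Tfap2a, against 4.68% of all genes, and 1 was higher, Zfhx4, against 4.61%. The median log2 difference of the 42 genes was -0.17, -0.17 and 0.01 at the 3 ages, beside -0.04, -0.03 and 0.04 for all genes. In bulk samples such as these, fewer cells of a type and less RNA per cell cannot be told apart.

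**Figure D1:**
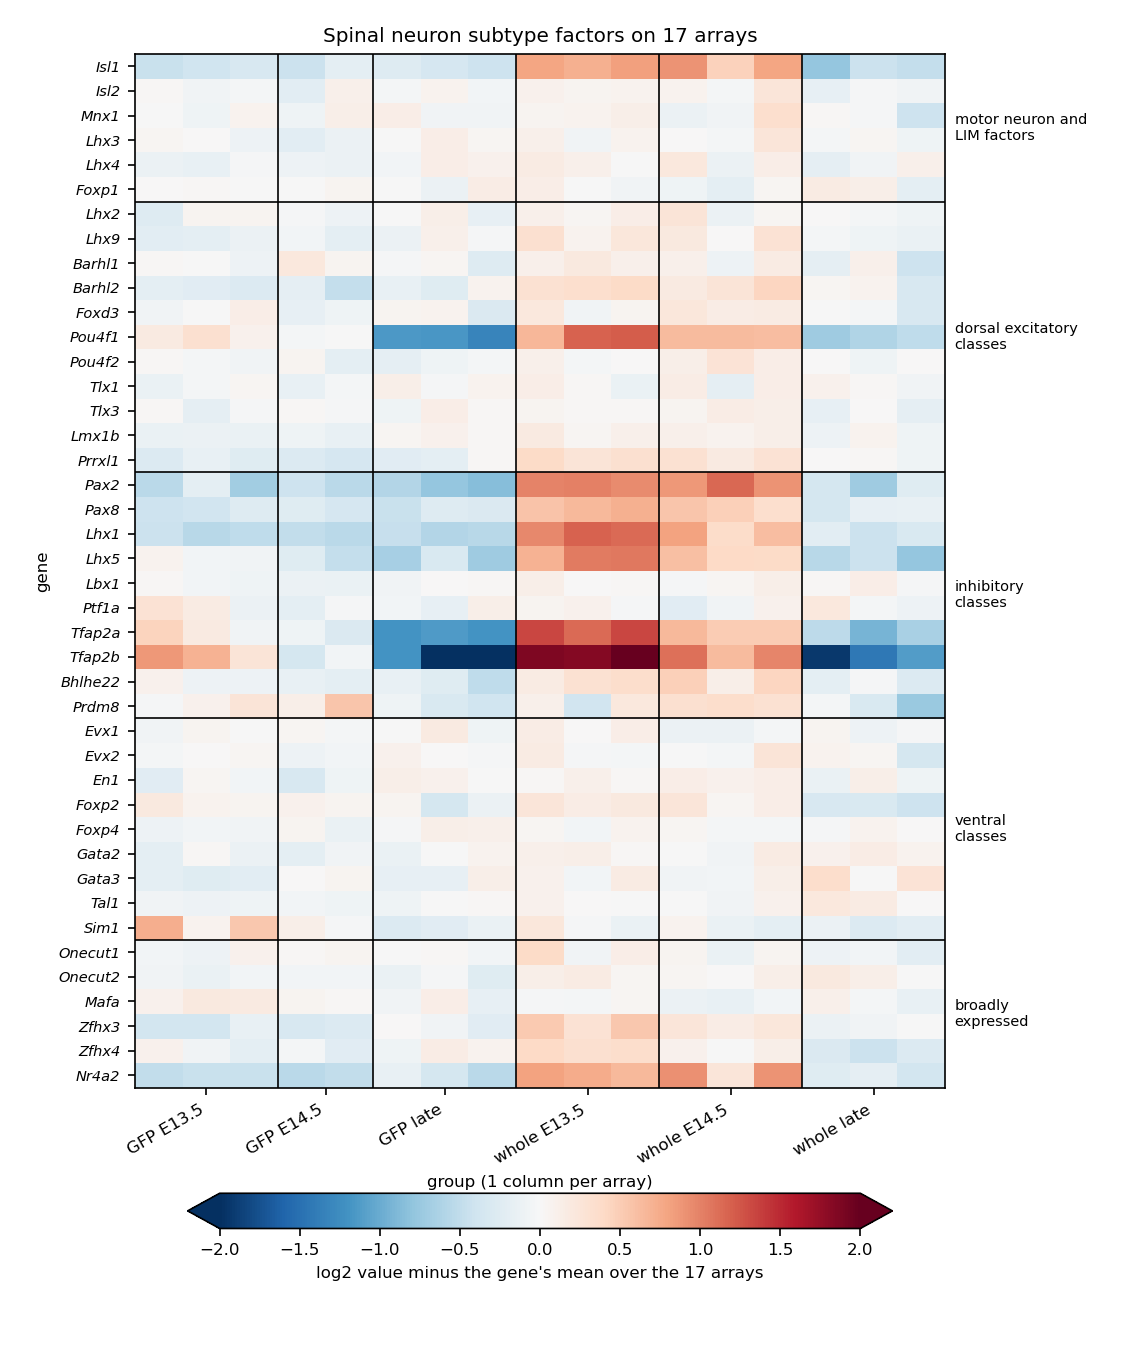
Heat map of the log2 value of each of the 42 factors (rows, grouped by role) on each of the 17 arrays (columns, grouped by sort and age), minus the gene's mean over the arrays. Red cells in the columns of whole at E13.5 and E14.5 mark the factors that were higher there, such as Pax2 and Lhx1, and the rows with little colour are factors whose values hardly varied.

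Differences past the threshold lay in a minority of the genes, while most of the 42 had a difference below 0 early on. The log2 difference of GFP cells minus whole was below 0 for 38 of the 42 genes at E13.5. A day later it was below 0 for 34 of them, and late in gestation for 21. Over all genes that share was not worked out. Their median difference was itself below 0 at E13.5 and E14.5 (-0.04 and -0.03) and above 0 late (0.04). Past the threshold, 12 of the 42 factors were lower in GFP cells at both E13.5 and E14.5, and 2 were lower at all 3 ages. For 23 factors none of the 6 comparisons made passed it. The shares of all genes for these combined counts were not worked out, so the counts are not set against a background. By role, 6 of 10 factors of the inhibitory classes were lower at E13.5, as were 5 of 11 of the dorsal excitatory classes. Of the motor neuron and LIM factors 1 of 6 was lower, and of the ventral classes none of 9. In the group called broadly expressed 3 of 6 were lower, and the breadth of their expression was not tested. Over all genes 8.01% were lower at that age. These role groups were drawn up with the results known, and no difference between them was tested. Each factor was counted in 1 group only, although some, such as Isl1, act in several classes. The count of a group therefore does not cover every factor of its neurons.

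Among the motor neuron and LIM factors, Isl1 was the gene that moved. It encodes a LIM-homeodomain protein of motor neurons, of a dorsal excitatory class and of sensory neurons. Its log2 value was 7.11, 7.14 and 7.23 on the 3 arrays of GFP cells at E13.5 and 8.34, 8.26 and 8.37 on those of whole. At E14.5 it was 7.12 and 7.36 in GFP cells and 8.44, 8.01 and 8.33 in whole. All early whole arrays lay above all GFP arrays, with no overlap, and the difference of GFP cells minus whole was -1.16 ± 0.11 (adjusted p = 1.13e-06) at E13.5 and -1.02 ± 0.13 (adjusted p = 1.27e-05) at E14.5. GFP cells of the late age were at 7.29, 7.21 and 7.13, above whole at 6.78, 7.12 and 7.06 and again without overlap. That late difference of 0.22 ± 0.11 (adjusted p = 0.268) did not pass the threshold. The other 5 genes of this group passed it in no comparison: Isl2, Mnx1, Lhx3 and Lhx4, which act with Isl1 in motor neurons or, for Lhx3 and Lhx4, in a neighbouring excitatory class, and Foxp1, which sets up the motor columns that innervate the limbs.

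The 2 largest differences at E13.5, those of Lhx1 and Pax2, were in factors of inhibitory classes. Pax2, a paired-box factor needed for the GABA-producing fate, was at 8.10, 8.45 and 7.95 in GFP cells and 9.63, 9.65 and 9.59 in whole at E13.5. At E14.5 it was at 8.23 and 8.10 against 9.50, 9.79 and 9.54. Each whole array stood above each GFP array at these ages, and the difference was -1.46 ± 0.13 (adjusted p = 5.14e-07) and then -1.45 ± 0.15 (adjusted p = 1.73e-06). The late arrays, with GFP cells at 8.05, 7.87 and 7.79 and whole at 8.29, 7.94 and 8.39, overlapped (-0.30 ± 0.13, adjusted p = 0.186). Pax8, its relative that is expressed in the same neurons, was at 7.83, 7.88 and 7.99 in GFP cells and 8.83, 8.90 and 8.97 in whole at E13.5, and at 8.01 and 7.92 against 8.80, 8.73 and 8.59 at E14.5. It was lower in GFP cells without overlap at both ages (-1.0 ± 0.08, adjusted p = 2.85e-07 and -0.75 ± 0.09, adjusted p = 1.88e-05), and its late values of 7.80, 7.99 and 7.96 and 7.91, 8.09 and 8.10 overlapped.

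Lhx1, a LIM-homeodomain factor of several inhibitory classes that helps to keep Pax2 on, had the largest difference of the 42 genes at E13.5. It was at 6.85, 6.73 and 6.78 in GFP cells and at 8.23, 8.46 and 8.42 in whole, without overlap (-1.59 ± 0.10, adjusted p = 1.14e-08). At E14.5 it was at 6.79 and 6.74 against 8.08, 7.65 and 7.90 (-1.11 ± 0.11, adjusted p = 1.52e-06). Late GFP cells were at 6.81, 6.69 and 6.73, and whole came down to 7.07, 6.86 and 6.97. The GFP values of Lhx1 at all ages lay below the array medians, as did those of Isl1 and Lhx5, and how far these values stood above background was not tested. The late arrays of Lhx1 still did not overlap, but the difference of -0.22 ± 0.10 (adjusted p = 0.203) did not pass the threshold. Lhx5, the paralogue of Lhx1, did decline in GFP cells.

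Lhx5 was at 7.41, 7.29 and 7.27 in GFP cells and 8.03, 8.38 and 8.39 in whole at E13.5, a difference of -0.94 ± 0.13 (adjusted p = 3.89e-05). At E14.5 the values were 7.10 and 6.85 against 7.94, 7.74 and 7.72, and the difference was -0.82 ± 0.14 (adjusted p = 0.000396). Both early ages were without overlap, whereas at the late age GFP cells at 6.67, 7.04 and 6.63 and whole at 6.78, 6.91 and 6.57 overlapped. From E13.5 to the late age Lhx5 fell in GFP cells (-0.54 ± 0.13, adjusted p = 0.00679).

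The AP-2 factors Tfap2a and Tfap2b, which act in dorsal inhibitory neurons and also in neural crest, were lower in GFP cells at the early ages and declined in both sorts. Tfap2b had the widest range of the 42 genes over the 17 arrays, 4.14 on the log2 scale. Its late values, in both sorts, lay below the array medians. At E13.5 it stood at 9.64, 9.47 and 9.03 in GFP cells and 10.64, 10.60 and 10.79 in whole, at E14.5 at 8.41 and 8.72 against 9.87, 9.40 and 9.74, and at the late age at 7.57, 6.69 and 6.64 against 6.84, 7.33 and 7.65. The sorts did not overlap at E13.5 (-1.30 ± 0.23, adjusted p = 0.000626) or E14.5 (-1.11 ± 0.26, adjusted p = 0.00531) and overlapped at the late age (-0.30 ± 0.23, adjusted p = 0.518). The E14.5 call was lost without GFP replicate 1 (-0.96, adjusted p = 0.078).

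Tfap2a was at 8.70, 8.44 and 8.19 in GFP cells and 9.60, 9.39 and 9.59 in whole at E13.5, and at 8.17 and 7.96 against 8.91, 8.76 and 8.76 at E14.5. Its late values were 7.06, 7.13 and 7.06 against 7.73, 7.32 and 7.60, all below the array medians. How far such late values stood above background was not tested. GFP cells were below whole without overlap at all 3 ages, with differences of -1.08 ± 0.12 (adjusted p = 6.59e-06), -0.74 ± 0.14 (adjusted p = 0.000751) and -0.47 ± 0.12 (adjusted p = 0.0213). The late call was lost without GFP late replicate 1 (adjusted p = 0.0645), whole late replicate 1 (0.099) or whole late replicate 3 (0.0718), and without the E18.5 arrays of both sorts (0.114).

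Bhlhe22, a basic helix-loop-helix repressor of dorsal interneurons that are known from mice with abnormal itch, was lower in GFP cells at E14.5 past the threshold. Its values there were 7.88 and 7.83 in GFP cells and 8.51, 8.14 and 8.46 in whole (-0.52 ± 0.13, adjusted p = 0.00671), and the call was lost without GFP replicate 2 (adjusted p = 0.0617). At E13.5 GFP cells at 8.11, 7.93 and 7.93 were also below whole at 8.20, 8.33 and 8.39, but the difference, -0.31 ± 0.11 (adjusted p = 0.0615), did not pass. The late values of 7.88, 7.80 and 7.52 and 7.84, 8.01 and 7.76 overlapped. Of the remaining inhibitory factors, Lbx1, which sets apart a large group of dorsal classes, Ptf1a, which starts the inhibitory program in dorsal progenitors, and Prdm8, a partner of Bhlhe22, passed the threshold in no comparison.

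**Figure D2:**
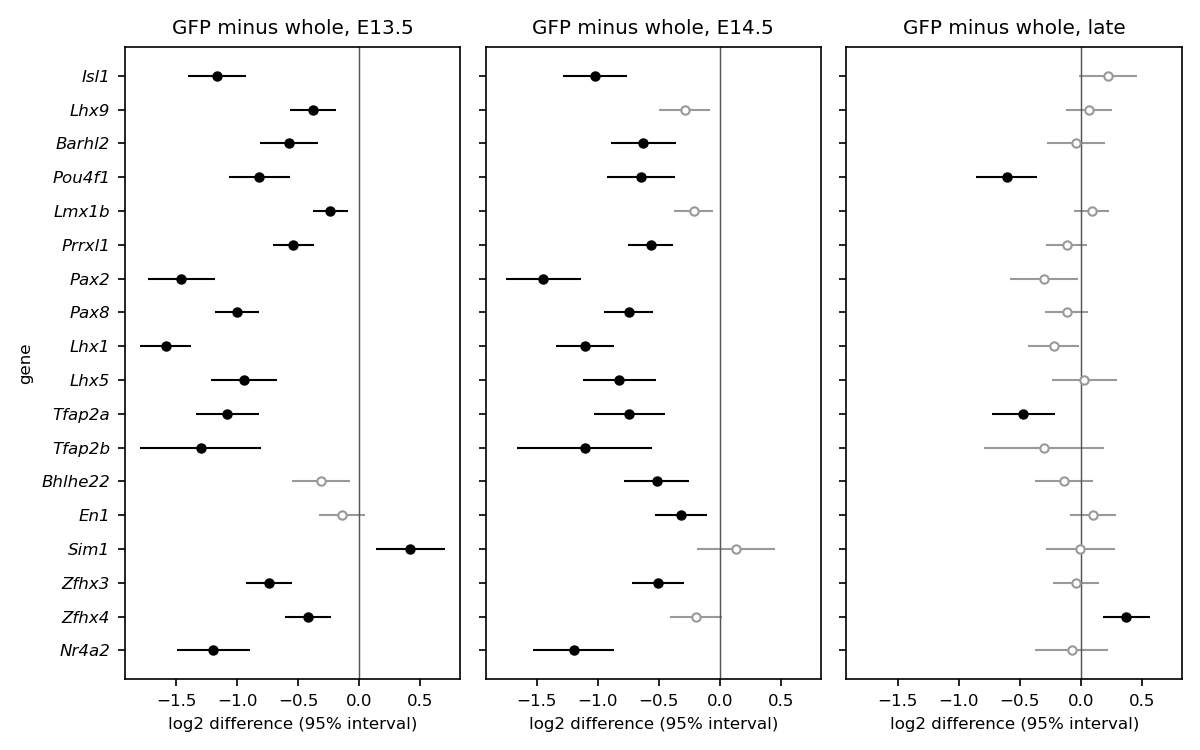
Log2 difference of GFP cells minus whole for the 18 factors described one by one, in a panel per age, with 95% intervals from limma. Filled points passed an adjusted p of 0.05 and open points did not; filled points lie to the left at E13.5 and E14.5, except Sim1, and 3 remain at the late age.

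Among the dorsal excitatory classes, Pou4f1 was the factor that stayed lower in GFP cells to the end. It encodes a POU-homeodomain protein of dorsal excitatory interneurons and of sensory neurons. It was at 8.21, 8.33 and 8.11 in GFP cells and 8.68, 9.20 and 9.23 in whole at E13.5, and at 7.97 and 8.01 against 8.65, 8.65 and 8.63 at E14.5. The late values were 6.86, 6.86 and 6.70 against 7.30, 7.42 and 7.52, all below the array medians. How far they stood above background was not tested. The sorts did not overlap at any age, and the difference was -0.82 ± 0.12 (adjusted p = 7.7e-05), then -0.65 ± 0.13 (adjusted p = 0.00161) and then -0.61 ± 0.12 (adjusted p = 0.00265).

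Barhl2, a homeodomain factor of commissural excitatory neurons, was at 8.13, 8.09 and 8.05 in GFP cells against 8.63, 8.66 and 8.70 in whole at E13.5 and at 8.14 and 7.84 against 8.51, 8.59 and 8.76 at E14.5. These groups did not overlap (-0.57 ± 0.11, adjusted p = 0.00139 and -0.63 ± 0.13, adjusted p = 0.00156), although the E14.5 call was lost without GFP replicate 2 (adjusted p = 0.0535). Late in gestation 8.17, 8.08 and 8.40 and 8.37, 8.39 and 8.0 overlapped. Lhx9, a LIM-homeodomain factor of the same neurons, was at 7.27, 7.27 and 7.36 in GFP cells against 7.79, 7.54 and 7.70 in whole at E13.5 (-0.38 ± 0.09, adjusted p = 0.0062). Its E14.5 values of 7.42 and 7.28 and 7.67, 7.49 and 7.76 were also apart, with -0.29 ± 0.10 (adjusted p = 0.0542), which missed the threshold, and its late values of 7.35, 7.57 and 7.45 and 7.44, 7.38 and 7.34 overlapped.

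Lmx1b and Prrxl1 act together in the glutamate-releasing neurons of the superficial dorsal horn. Prrxl1 was at 8.42, 8.55 and 8.45 in GFP cells and 9.07, 8.96 and 9.01 in whole at E13.5, and at 8.41 and 8.35 against 9.0, 8.87 and 8.98 at E14.5. It was below whole without overlap at both ages (-0.54 ± 0.08, adjusted p = 9.76e-05 and -0.57 ± 0.09, adjusted p = 0.000158), and at the late age 8.46, 8.50 and 8.71 and 8.71, 8.71 and 8.60 overlapped. Lmx1b differed less: it was at 8.16, 8.17 and 8.15 in GFP cells against 8.46, 8.33 and 8.40 in whole at E13.5 (-0.24 ± 0.07, adjusted p = 0.0202), at 8.20 and 8.14 against 8.39, 8.36 and 8.40 at E14.5 (-0.21 ± 0.08, adjusted p = 0.0618), and at 8.33, 8.37 and 8.31 against 8.19, 8.36 and 8.20 at the late age. The early groups did not overlap, but the E13.5 call was lost when any 1 of 5 of its 6 arrays was left out (adjusted p from 0.0504 to 0.0928); without whole replicate 2 it held. The other 6 factors of this group, Lhx2, Barhl1, Foxd3, Pou4f2, Tlx1 and Tlx3, passed the threshold in no comparison, although Tlx1 and Tlx3 are known as selectors of the glutamatergic over the GABAergic fate.

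In the ventral classes 2 factors differed between the sorts, in opposite directions and each at 1 age. Sim1, a factor of the ventralmost excitatory interneurons, was at 8.17, 7.52 and 7.99 in GFP cells and 7.68, 7.42 and 7.32 in whole at E13.5. It was the only one of the 42 genes called higher in GFP cells at that age (0.42 ± 0.13, adjusted p = 0.0367), its groups overlapped, and the call was lost without GFP replicate 1 (adjusted p = 0.199), GFP replicate 3 (0.12), whole replicate 2 (0.1) or whole replicate 3 (0.146). At E14.5 it was at 7.58 and 7.43 against 7.53, 7.31 and 7.26, and at the late age at 7.19, 7.23 and 7.32 against 7.33, 7.17 and 7.24, with overlap at both ages. En1, a homeodomain factor of ventral inhibitory interneurons that contact motor neurons, was lower in GFP cells at E14.5, at 7.22 and 7.45 against 7.67, 7.63 and 7.67 (-0.32 ± 0.10, adjusted p = 0.0334). This call was lost without GFP replicate 1 (-0.20, adjusted p = 0.359) or without any 1 of the whole arrays (0.0501 to 0.0793). En1 overlapped between the sorts at E13.5, with 7.30, 7.57 and 7.47 against 7.56, 7.64 and 7.56, and at the late age, with 7.66, 7.62 and 7.53 against 7.39, 7.66 and 7.45.

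Of the other ventral factors, Evx1 and Evx2 of a commissural class, Gata2, Gata3 and Tal1 of an inhibitory class, and Foxp4 passed the threshold in no comparison. Gata2, Gata3 and Tal1 also work in blood cells, and the summed linear signal of 8 erythroid markers at E13.5 ran from 26500 to 31200 in whole but from 1380 to 1830 in GFP cells. The part of those cells in the values of these 3 genes was not tested. Tal1 had a range of only 0.30 over all 17 arrays.

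In the role group called broadly expressed, Zfhx3, Zfhx4 and Nr4a2 also differed between the sorts. Nr4a2, an orphan nuclear receptor best known from midbrain dopamine neurons, was at 7.49, 7.53 and 7.53 in GFP cells and 8.78, 8.71 and 8.63 in whole at E13.5, and at 7.44 and 7.48 against 8.90, 8.21 and 8.87 at E14.5. The whole arrays were above the GFP arrays at both ages (-1.20 ± 0.14, adjusted p = 9.8e-06 and -1.20 ± 0.16, adjusted p = 2.72e-05), and whole replicate 2 at E14.5 was the lowest of the early whole arrays. Its late values of 7.83, 7.63 and 7.44 and 7.73, 7.79 and 7.61 overlapped.

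Zfhx3, a large protein with zinc fingers and homeodomains found in spinal neurons with long axons, was at 8.54, 8.53 and 8.76 in GFP cells against 9.43, 9.19 and 9.45 in whole at E13.5 and at 8.58 and 8.63 against 9.15, 9.05 and 9.14 at E14.5. It was lower in GFP cells without overlap at both ages (-0.74 ± 0.09, adjusted p = 1.21e-05 and -0.51 ± 0.10, adjusted p = 0.00129), and its late values of 8.91, 8.83 and 8.68 and 8.79, 8.84 and 8.90 overlapped. Its relative Zfhx4 changed sides. It was at 9.19, 9.03 and 8.89 in GFP cells and 9.50, 9.42 and 9.45 in whole at E13.5 (-0.42 ± 0.09, adjusted p = 0.00254), and at 9.06 and 8.87 against 9.18, 9.10 and 9.22 at E14.5 (-0.20 ± 0.10, adjusted p = 0.211). At the late age GFP cells at 9.01, 9.24 and 9.17 stood above whole at 8.80, 8.67 and 8.83, with no overlap (0.37 ± 0.09, adjusted p = 0.0121). This late call was lost without GFP late replicate 2 (adjusted p = 0.0631) or whole late replicate 2 (0.0528), and when the 2 late groups were fitted alone (0.081). The remaining 3 factors of this role group, Onecut1, Onecut2 and Mafa, passed the threshold in no comparison.

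**Figure D3:**
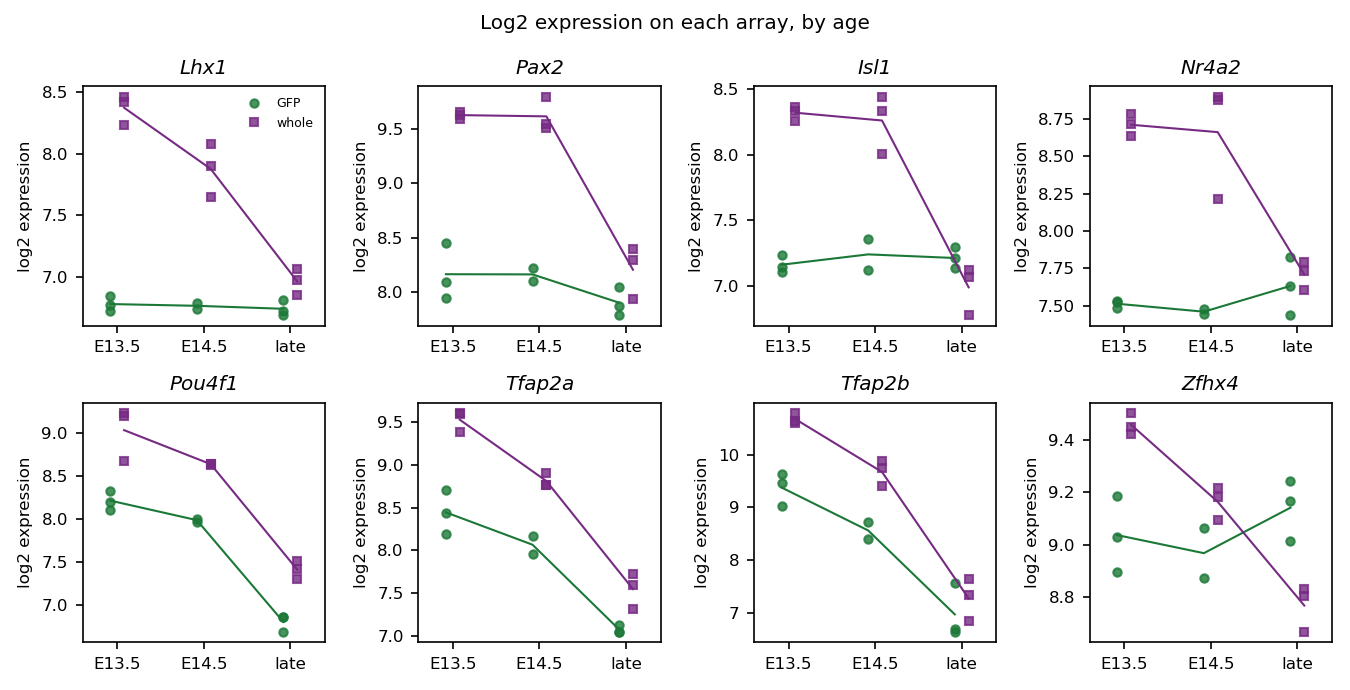
Log2 expression of 8 factors on each array by age, with circles for GFP cells, squares for whole and lines through the group means; the vertical scale differs between panels and does not start at 0. Lhx1, Pax2, Isl1 and Nr4a2 came down in whole towards the level of the GFP cells, Pou4f1, Tfap2a and Tfap2b came down in both sorts, and Zfhx4 crossed over.

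The second question is how the factors moved with age within each sort. In whole, 16 of the 42 genes were lower at the late age than at E13.5, where 9.99% of all genes were lower, and none was higher, where 10.2% of all genes were higher; none was higher at an unadjusted p under 0.05 either. In GFP cells 5 of the 42 were lower, against 8.96% of all genes, and none was higher, against 7.32%; at an unadjusted p under 0.05, 2 were higher. Over all genes the split in GFP cells was 1745 higher and 2135 lower, and 1291 and 2773 after the arrays were given equal medians. The median change was -0.20 in whole and 0.02 in GFP cells, beside -0.03 and 0.05 for all genes. Of the 16 genes that fell in whole, 14 were among those lower in GFP cells than in whole at E13.5; these 2 counts share the whole arrays of E13.5.

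Tfap2b fell in whole (-3.40 ± 0.23, adjusted p = 1.62e-08) and in GFP cells (-2.41 ± 0.23, adjusted p = 1.58e-06), from a mean of 10.68 to 7.27 and from 9.38 to 6.97. Tfap2a fell in whole (-1.97 ± 0.12, adjusted p = 5.91e-09) and in GFP cells (-1.36 ± 0.12, adjusted p = 6.77e-07). Pou4f1 fell in whole (-1.62 ± 0.12, adjusted p = 3.09e-08) and in GFP cells (-1.41 ± 0.12, adjusted p = 3e-07). With Lhx5, whose change in whole was -1.52 ± 0.13, these are the 4 factors that fell in both sorts. The late values of all 4 lay below the array medians in both sorts. Sim1 was the one factor that fell in GFP cells (-0.65 ± 0.13, adjusted p = 0.00269) without passing the threshold in whole (-0.23 ± 0.13, adjusted p = 0.292); the GFP groups did not overlap, but the difference between the 2 declines did not pass (-0.42 ± 0.19, adjusted p = 0.242).

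The other 12 genes that fell in whole did not pass the threshold in GFP cells. Lhx1 fell in whole (-1.40 ± 0.10), and its change in GFP cells was -0.04 ± 0.10 (adjusted p = 0.839). Pax2 and Isl1 changed by -1.41 ± 0.13 and -1.34 ± 0.11 in whole, against -0.26 ± 0.13 and 0.05 ± 0.11 in GFP cells. Smaller falls in whole were those of Nr4a2 (-1.0 ± 0.14), Pax8 (-0.86 ± 0.08), Zfhx4 (-0.69 ± 0.09), Zfhx3 (-0.51 ± 0.09), Bhlhe22 (-0.43 ± 0.11), Barhl2 (-0.41 ± 0.11), Prrxl1 (-0.34 ± 0.08) and Lhx9 (-0.29 ± 0.09). The call for Lhx9 was lost without 4 different whole arrays taken 1 at a time (adjusted p from 0.0705 to 0.139), and that for Barhl2 without whole replicate 3 of either age (0.0505 and 0.0801). Foxp2, a forkhead factor of ventral inhibitory interneurons, also fell in whole, from 8.59, 8.51 and 8.54 to 8.03, 8.05 and 7.93 (-0.54 ± 0.09, adjusted p = 0.000374). It passed the threshold in no other comparison, and it is named here after its values were seen.

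**Figure D4:**
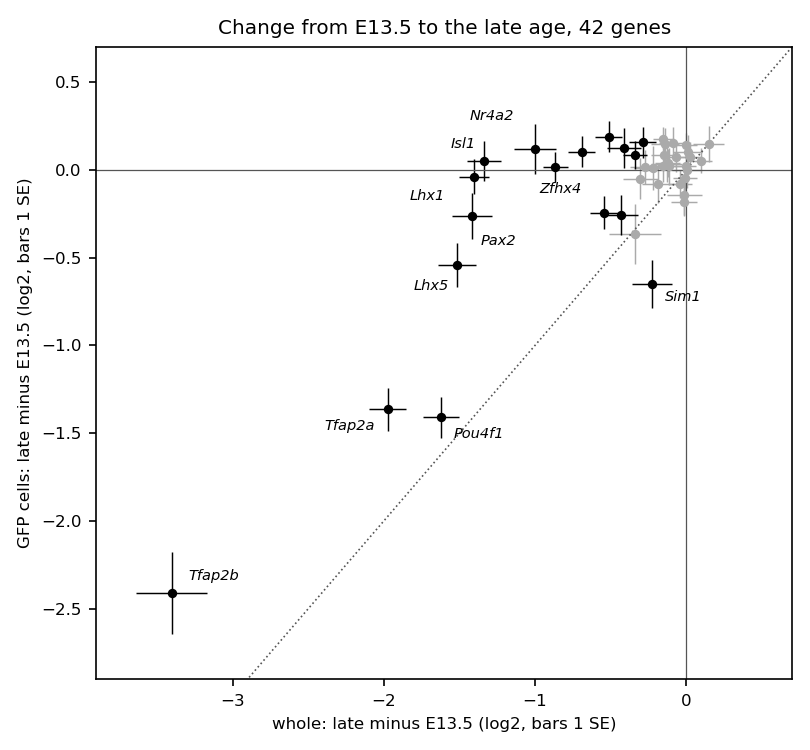
Change in log2 expression from E13.5 to the late age in whole (horizontal axis) and in GFP cells (vertical axis) for the 42 factors, with bars of 1 standard error; black points passed the threshold in at least 1 sort and the dotted line marks equal change. Tfap2b, Tfap2a and Pou4f1 lie low on both axes, while Lhx1, Isl1, Pax2 and Nr4a2 lie far to the left but near 0 on the vertical axis.

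Whether the difference between GFP cells and whole itself changed from E13.5 to the late age was tested with an interaction term. It was more positive at the late age for 9 of the 42 genes, where 1.6% of all genes were, and more negative for none, where 3% were; at an unadjusted p under 0.05, 1 was more negative. The 9 genes were Isl1 (1.39 ± 0.16, adjusted p = 6.94e-05), Lhx1 (1.37 ± 0.14, adjusted p = 2.35e-05), Pax2 (1.15 ± 0.19), Nr4a2 (1.12 ± 0.20), Lhx5 (0.97 ± 0.18), Pax8 (0.88 ± 0.12), Zfhx4 (0.80 ± 0.13), Zfhx3 (0.70 ± 0.13) and Prrxl1 (0.43 ± 0.11, adjusted p = 0.0393). The call for Prrxl1 was lost in 9 of the 12 fits that left out an array of these groups (adjusted p from 0.0514 to 0.0988). The GFP values of Isl1, Lhx1 and Lhx5 lay below the array medians at all ages, and Nr4a2 lay below them on 10 of the 17 arrays. Pax2, Pax8, Zfhx3, Zfhx4 and Prrxl1 lay below them on no array. The part of low signal in the interaction was not tested. Tfap2b (1.0 ± 0.33, adjusted p = 0.105) and Tfap2a (0.61 ± 0.17, adjusted p = 0.0569) did not pass this test, nor did Pou4f1, whose difference was -0.82 ± 0.12 at E13.5 and still -0.61 ± 0.12 late (0.21 ± 0.17, adjusted p = 0.529). Markers of other cells passed the same test. Of the 9 astrocyte and radial glia markers, 4 were more negative at the late age, namely Aldoc (-1.65 ± 0.18), Aldh1l1 (-1.22 ± 0.17), Slc1a3 (-1.21 ± 0.11) and Nfia (-0.54 ± 0.14), and 2 were more positive, Gfap (1.28 ± 0.20) and Aqp4 (0.76 ± 0.19). All 8 microglial markers were more negative. The part of these cells in the interaction of the subtype factors was not tested.

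General neuronal genes were lower in GFP cells at every age. Of 13 pan-neuronal genes measured, 13, 13 and 12 were lower in GFP cells at the 3 ages in turn, with median differences of -1.33, -1.70 and -1.53. At the late age, the differences were -2.07 ± 0.11 for doublecortin, Dcx, -2.0 ± 0.35 for the neurofilament gene Nefm and -1.87 ± 0.14 for the neuronal tubulin Tubb3. Their summed linear signal in whole ran from 32200 to 35100 at E13.5 and from 15400 to 17300 late, and that in GFP cells from 14700 to 15700 and later from 6490 to 7440. In the interaction test 3 of the 13 were more negative at the late age, Tubb3, Elavl4 and Dcx, and 1 was more positive, Map2.

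Of the 11 transmitter genes, 5, 6 and 5 were lower in GFP cells at the 3 ages in turn, and none was higher. The vesicular glutamate transporter Slc17a6 was lower, with log2 differences of -2.23 ± 0.14, -2.25 ± 0.16 and -1.51 ± 0.14 at the 3 ages. The GABA-synthesising enzyme Gad2 was lower too, with differences of -2.16 ± 0.16, -2.50 ± 0.18 and -1.10 ± 0.16, and those of the glycine transporter Slc6a5 were -1.75 ± 0.11, -1.50 ± 0.12 and -0.48 ± 0.11. The interaction was positive past the threshold for 3 genes, all of inhibitory transmission, Slc6a5 (1.27 ± 0.16), Gad2 (1.07 ± 0.22) and Slc32a1 (0.40 ± 0.10). That of Slc17a6 was larger than that of Slc32a1 but narrowly missed it (0.71 ± 0.20, limma adjusted p = 0.0571). The inhibitory gene Gad1 did not pass either (0.24 ± 0.15, adjusted p = 0.396).

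**Figure D5:**
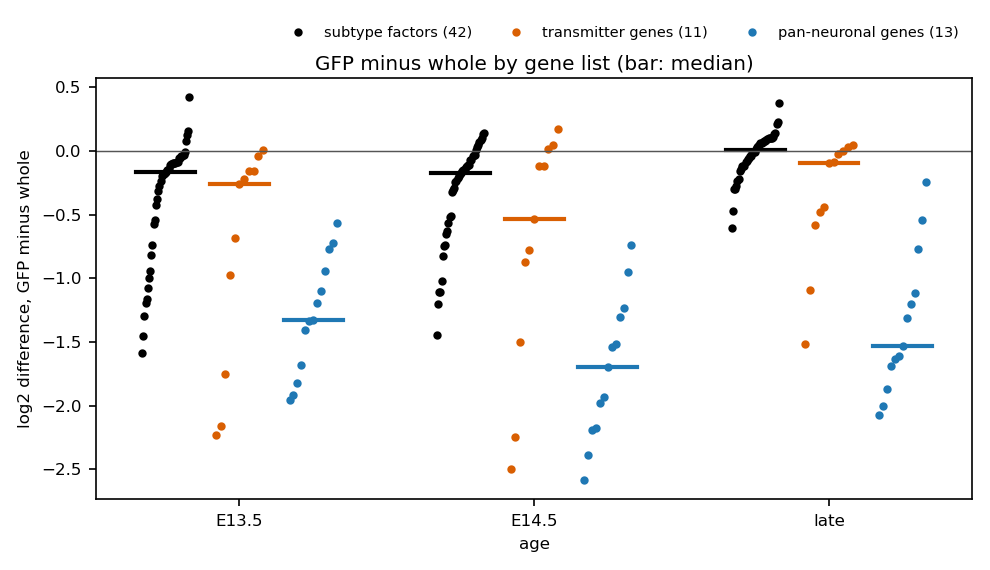
Log2 difference of GFP cells minus whole for each gene of 3 lists at each age (points, sorted within a list; bars are medians). The medians of the 42 subtype factors are -0.17, -0.17 and 0.01, and those of the 13 pan-neuronal genes are -1.33, -1.70 and -1.53.

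A second list of 34 spinal neuron subtype factors showed 10 lower and 3 higher in GFP cells at E13.5, then 10 and 4 at E14.5 and finally 2 and 3. The log2 difference at E13.5 was -1.25 ± 0.09 for Skor1, a co-repressor of dorsal interneurons, -1.21 ± 0.13 for the nuclear receptor Esrrg and -0.97 ± 0.10 for the zinc-finger factor Bcl11a, while the ETS factor Etv1 was higher (1.94 ± 0.18). In whole 13 of these 34 fell with age and 5 rose. Of 10 genes of LIM-domain complexes, which are LIM-only proteins, Ldb bridging proteins, their Ssbp partners and Rlim, 2 were lower and 1 was higher at E13.5: the LIM-only gene Lmo2 at -0.49 ± 0.15, the bridging protein Ldb1 at -0.31 ± 0.07 and Ssbp2 at 0.37 ± 0.08. Ldb1, which joins LIM-homeodomain proteins such as Isl1 and Lhx3 into complexes, fell in whole (-0.71 ± 0.07) and in GFP cells (-0.22 ± 0.07).

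Among factors of the progenitor domains from which these neurons arise, more were higher than lower in GFP cells early on. Of 23 measured, 10 were higher and none was lower in GFP cells at E13.5, with 8 higher and 1 lower, Olig3, at E14.5 and 2 of each late. Pax6 was higher by 1.12 ± 0.13 at E13.5, Olig3 by 1.04 ± 0.21 and Pax3 by 0.84 ± 0.10. Olig3, which marks the dorsal progenitors that give rise to the Pou4f1 and Lhx9 classes, was then lower in GFP cells at E14.5 (-0.80 ± 0.23, adjusted p = 0.0225). It fell with age in GFP cells (-3.35 ± 0.21) and in whole (-2.22 ± 0.21).

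Some markers of other cells differed in the same comparisons. Of 11 markers of dorsal root ganglion neurons, which also express Isl1, Pou4f1 and Prrxl1, 4, 2 and 2 were lower in GFP cells at the 3 ages in turn. The median difference of the 11 was -0.22 at E13.5, and 7 of them did not pass the threshold, such as Avil (0.03 ± 0.10) and Trpv1 (0.06 ± 0.10). Their summed linear signal at E13.5 ran from 2120 to 2180 in GFP cells and from 3530 to 3650 in whole; without Scn9a it ran from 1820 to 1930 and from 2160 to 2400. The sodium channel Scn9a had a log2 difference of -2.26 ± 0.29, and the other 3 that passed at E13.5 were Sncg (-0.45 ± 0.09), Prph (-0.45 ± 0.12) and P2rx3 (-0.28 ± 0.07). In whole, from E13.5 to the late age, all 8 microglial markers, 6 of 8 endothelial markers and 8 of 9 astrocyte and radial glia markers rose, while 10 of 13 pan-neuronal genes fell. Of 7 neural crest and Schwann markers, a list that shares Foxd3 with the 42 genes, none passed the threshold between the sorts at E13.5. At E14.5, 2 of them were higher in GFP cells and none was lower, and at the late age 1 was lower and none was higher. Of 8 meningeal markers, 6 were lower and 2 higher at E13.5. The part of these cells in the differences of the subtype factors was not tested.

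The 23 factors that passed the threshold in no comparison spanned 0.25 (Foxp4) to 1.30 (Prdm8) over the 17 arrays, and their values lay between 5.57 and 9.04 on the log2 scale. Prdm8 had a wide spread within groups, such as 8.45, 8.19 and 7.74 in whole at the late age. The median range over the arrays was 0.59 for the 42 factors and 0.59 for all genes, and 10 of the 42 ranged over at least 1 log2 unit, against 18.8% of all genes. For 11 factors the value lay under the array median on all 17 arrays: Isl2, Lhx9, Tlx1, Tlx3, Evx1, En1, Foxd3, Gata3, Mnx1, Onecut1 and Ptf1a. A missed threshold does not show that these genes were equal between the sorts. For Mnx1 the 95% interval of the difference at E13.5 was -0.35 to 0.17, and for Lbx1 it was -0.24 to 0.06.

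The authors' deposited table for E13.5 lists 10 of the 42 genes among 1875, all with a fold of GFP over whole below 1, from 0.333 for Lhx1 (adjusted p = 0.00248) to 0.598 for Zfhx3 (0.00388). The authors' deposited table for E14.5 lists 3, namely Lhx1 (0.616), Isl1 (0.603) and Pax2 (0.545), with adjusted p-values of 0.139 to 0.142. The folds of all 552 genes in that table equal the ratio of means within a relative 0.0001 when the array that its title marks as mislabeled is counted among the GFP arrays, and for none when it is left out, so these folds and the E14.5 differences above rest on different arrays. The authors' deposited table for the late age lists Pou4f1 (0.656, adjusted p = 0.0707). In the authors' deposited coexpression table, 9 of the 42 genes belong to the module called blue, 6 to brown, 2 to magenta (Gata3 and Tal1), 1 to black (Sim1) and 1 to red (Mafa), and 23 to none. Over all 23890 genes of the table the shares of blue and brown are 5.18% and 4.59%. Those of magenta, black and red are 2.04%, 4.84% and 4.26%, and 63.2% belong to none. The blue genes include Isl1, Lhx1, Pax2, Pax8, Zfhx3 and Nr4a2, and the brown genes are Lhx5, Pou4f1, Foxp2, Tfap2a, Tfap2b and Zfhx4. These modules were built from the same arrays, so the assignment describes the courses given above and adds no separate evidence.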

How the data were processed

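Expression was measured in 18 samples, 1 array each. What was analysed is the log2 expression deposited by the authors for each of 35556 probe sets. The submitters' processing notes name oligo, RMA, limma and the build mm9; the sources used here give no versions. The authors' deposited comparison tables give a linear fold (ratio of GFP to whole) and a p-value per listed gene, and their deposited coexpression tables a score per gene and module (kME, a correlation with the module's profile). The comparison samples are called all live cells in the titles and whole cord in the cell type label, while the shared treatment text mentions GFP-negative cells; they are called whole here.

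Probe sets were named by matching values to the comparison tables and recomputed kME scores to the coexpression table within 1e-08 (all 23890 rows matched, 135 of them to more than 1 probe set). Columns headed for E14.5 GFP cells that could not be tied to 1 sample, 3 in each of 2 tables, were not used. For 37 genes with several probe sets the one with the highest mean was kept. Symbols were updated with a RefSeq gene table. No comparison used the array whose title calls it mislabeled.

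A single limma model (3.58.1, R 4.3.3) with a mean for each of 6 groups was fitted to 17 arrays, and contrasts were moderated with eBayes on 11 residual plus 5.43 prior degrees of freedom. Benjamini-Hochberg adjustment ran over 23834 genes at 0.05, and ± gives the standard error from limma in log2 units. In a test on simulated data of 23834 genes with 200 changed, 97% of genes changed by a log2 of 1 and 64% of those changed by 0.5 were recovered for GFP cells against whole at E13.5, 94% and 57% a day later, 97% and 50% late, 91% and 62% for GFP cells with age, 96% and 62% for whole with age, and 86% and 21% for the interaction. The simulated noise was normal and independent between genes, and the comparisons of the data called 1096 to 4813 genes rather than 200. The recovery in the data can therefore differ from these rates. Alternatives were other normalizations, a filter on dim genes, an intensity trend, fits of the compared groups alone, all probe sets, arrays left out and a replicate block. Factors past the threshold between the sorts, or with age in GFP cells, are described one by one; of the other lists 2 to 4 genes with the largest changes are named. The 42 genes, the role groups and the lists were chosen with earlier results of these data known. Rbfox3 and Prdm12 of the lists were not measured under a usable name. The labels give neither batches nor scan dates, and arrays have no read depth.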

Additional observations from a re-analysis of the deposited data

Results flagged for a closer look

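For 9 of the 42 factors the difference between GFP cells and whole was more positive at the late age than at E13.5, by the interaction term of the limma fit; values are changes in the log2 difference with its standard error. They were Isl1 (1.39 ± 0.16), Lhx1 (1.37 ± 0.14), Pax2 (1.15 ± 0.19), Nr4a2 (1.12 ± 0.20), Lhx5 (0.97 ± 0.18), Pax8 (0.88 ± 0.12), Zfhx4 (0.80 ± 0.13), Zfhx3 (0.70 ± 0.13) and Prrxl1 (0.43 ± 0.11). Of these, Zfhx4 passed the threshold in both directions, lower in GFP cells at E13.5 and higher at the late age. Its late call was lost without GFP late replicate 2 (limma adjusted p = 0.0631) or whole late replicate 2 (0.0528). For Isl1, Lhx1 and Lhx5 the GFP values lay below the array medians at all ages. All groups have 2 or 3 arrays, too few to look for single arrays that stand apart.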

How the results depend on the processing

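The 63 called differences of the 42 factors had 874 values under the alternatives run, and none had the opposite sign. Over the 18 factors described one by one and all settings, 1458 results stayed on their side of the threshold, 53 were no longer past it and 19 passed it only there. A difference past the threshold in neither fit was counted as staying. The count of factors higher in GFP cells at E13.5 was 0 instead of 1 with dim genes left out (Sim1 is among them), with the compared groups fitted alone and with all probe sets. At the late age the compared groups alone gave 0 higher and 1 lower, and leaving out the E18.5 arrays gave 1 lower. With dim genes left out, 3 instead of 5 factors fell with age in GFP cells. Leaving out 1 array at a time gave 14 to 15 lower and 0 to 1 higher at E13.5, 12 to 14 lower at E14.5, 1 to 4 lower and 0 to 1 higher late, 5 to 6 falling in GFP cells, 14 to 18 falling in whole, and 8 to 10 more positive and 0 to 1 more negative in the interaction. Over all genes, fitting the late groups alone called 1020 instead of 2214 genes between the sorts, and adjusting over all probe sets 714 instead of 1096 in the interaction. With dim genes left out, the late split over all genes was 1172 higher and 757 lower, against 1098 and 1116.

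With the replicate number as a block, 14, 12 and 2 factors were lower in GFP cells at the 3 ages in turn, 16 fell in whole and 5 in GFP cells, and 8 were more positive in the interaction. The calls lost under the block were Lmx1b at E13.5 (adjusted p = 0.0645), En1 (0.109) and Tfap2b (0.0622) at E14.5, and the interaction of Prrxl1 (0.129). Same-numbered arrays of 1 age deviated together only weakly (correlations from -0.08 to 0.12), so the numbers were not taken to pair the samples.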

Other observations

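The array that its title marks as mislabeled was in no group, and its log2 values for the factors were 7.99 for Lhx1, 9.88 for Pax2, 8.12 for Isl1, 8.91 for Pax8, 9.08 for Nr4a2, 8.85 for Pou4f1 and 10.15 for Tfap2b. No condition was drawn from these values.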
